A study of Mus musculus with 12 samples.

Results

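The 10 genes described here make bile acids in the hepatocyte or carry them, or the phospholipid that travels with them, across its membranes. They were taken from the raw liver count table by gene symbol, and the 10 symbols gave 10 of the 54838 genes in the table. *Cyp7a1* and *Cyp8b1* encode hydroxylases of the classical synthesis route, and *Cyp27a1* and *Cyp7b1* those of the alternative route. *Slc27a5* and *Baat* act in conjugation, *Slc10a1* (NTCP) and *Slco1b2* (OATP1B2) in uptake from portal blood, and *Abcb11* (BSEP) and *Abcb4* (MDR2) in export into bile.

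RNA was from the livers of 12 adult female C57BL/6J mice, 3 in each of 4 groups, 1 liver per library. Water-PBS mice, the controls, drank normal water and were injected with PBS. Zinc-PBS mice drank 25 mM ZnSO4 for 7 days before PBS. Water-Dex mice drank normal water and received 200 µg dexamethasone (Dex), which activates the glucocorticoid receptor, and zinc-Dex mice received both treatments. All livers were taken 2 h after the injection, so the data hold 1 early time after Dex, and no group carried a mutant allele.

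Bile acids are made from cholesterol in hepatocytes. CYP7A1 starts the classical route and is its rate-limiting step, while CYP8B1 sets the share of cholic acid. CYP27A1, a mitochondrial enzyme, oxidizes the sterol side chain and starts the alternative route, in which CYP7B1 follows. After conjugation to taurine, bile acids leave through BSEP into the canaliculus, return from the intestine in portal blood and are taken up again by NTCP and OATPs. The pathway is held in check by the nuclear receptor FXR (*Nr1h4*) and its target SHP (*Nr0b2*), and *Cyp7a1* expression is also known to vary over the day.

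Total counts lay between 9091152 and 12303527 per library. Levels are normalized read counts (raw counts divided by DESeq2 size factors), given per library in replicate order, and a gene passed a comparison at a DESeq2 adjusted p under 0.05 over all genes tested. All 10 genes had enough reads to be tested, with 174 raw reads in the lowest library for the weakest, *Cyp7b1*. The hepatocyte markers *Alb*, *Apoa1*, *Ttr*, *Serpina1c* and *Fgb* were present in all libraries, with 875077 to 1331718 raw reads of *Alb*. In these bulk samples a change in the number of hepatocytes and a change in RNA per hepatocyte cannot be told apart. Together the 10 genes made up 0.607% ± 0.0677 of all counts in water-PBS, 0.661% ± 0.0222 in zinc-PBS, 0.552% ± 0.0307 in water-Dex and 0.599% ± 0.0477 in zinc-Dex (SD, n = 3).

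Levels between genes were compared per kilobase of exon in water-PBS. *Slc27a5* was the highest at 4213 ± 363.5 normalized counts per kilobase (SD, n = 3), followed by *Slc10a1* at 3265 ± 410.6 and *Slco1b2* at 3210 ± 304.6. The latter 2 uptake carriers overlapped between mice and their order is not set. *Cyp27a1* (2420 ± 37.39), *Abcb11* (2245 ± 164.1) and *Baat* (1795 ± 162.7) came next per kilobase, without overlap between neighbours. *Cyp8b1* (1228 ± 416.7) overlapped *Baat*, and *Abcb4* (381.8 ± 12.22) overlapped *Cyp7a1* (518.9 ± 302.7). The lowest was *Cyp7b1*, at 117.8 ± 5.49 per kilobase.

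**Figure D1:**
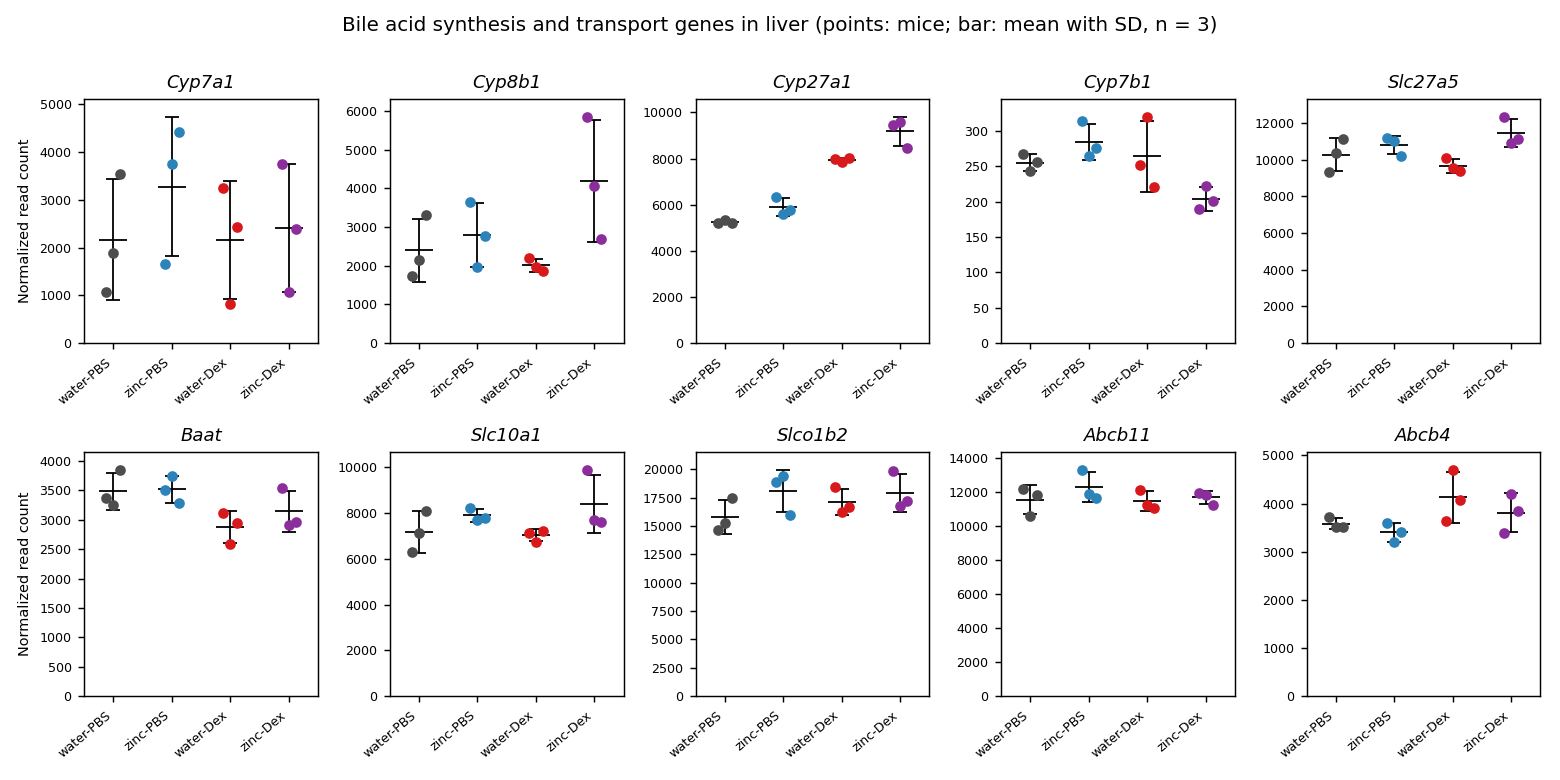
Normalized read counts (linear axes from 0) of the 10 bile acid genes in the 4 groups; each point is 1 mouse and the bar is the mean with its SD (n = 3). *Cyp27a1* is the gene whose 6 Dex-injected mice, at 7871 to 9599, all lie above the 6 PBS-injected mice, at 5199 to 6340, while the *Cyp7a1* points of all groups overlap.

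*Cyp27a1* (ENSMUSG00000026170, GRCm38 chromosome 1, 74713574 to 74737892, plus strand) rose after Dex, with and without zinc. Its normalized counts were 5226, 5351 and 5199 in water-PBS and 6340, 5582 and 5767 in zinc-PBS. They were 7965, 7871 and 8005 in water-Dex, with 9455, 9599 and 8476 in zinc-Dex. All Dex-injected mice stood above all PBS-injected mice, and the 3 water-Dex mice lay within a coefficient of variation of 0.865%. The rise was 1.51-fold (95% interval 1.37 to 1.67) in water-Dex against water-PBS (log2 0.60, SE 0.0722, DESeq2 adjusted p 6.6e-15). It was 1.56-fold (1.41 to 1.72) in zinc-Dex against zinc-PBS (log2 0.64, SE 0.0719, DESeq2 adjusted p 3.9e-17), a comparison that shares no library with the first. The difference between these Dex effects was 0.04 on the log2 scale (95% interval -0.16 to 0.24). Zinc-Dex against water-PBS gave 1.74-fold (log2 0.80, DESeq2 adjusted p 6.7e-27). In 13 of 13 alternative analyses that kept the adjusted p threshold alone, all 3 calls held, at log2 values from 0.59 to 0.61, from 0.60 to 0.70 and from 0.77 to 0.86. With an absolute log2 fold change over 0.8 also required, the calls of water-Dex against water-PBS and of zinc-Dex against zinc-PBS were lost.

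With zinc, *Cyp27a1* was higher in each mouse than without, at both injections, by amounts that did not pass. Zinc-PBS against water-PBS was 1.12-fold (log2 0.17, DESeq2 adjusted p 0.673). Zinc-Dex against water-Dex was 1.15-fold (log2 0.21, DESeq2 adjusted p 0.147), and it passed when zinc-Dex replicate 3, the lowest of its group, was left out (adjusted p 0.047). Of all genes averaging 100 or more normalized counts, 12.0% had non-overlapping groups in the first of these comparisons and 22.2% in the other.

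The hepatocyte marker genes moved with the same contrast. Their summed level was 1130841 to 1338994 normalized counts in water-PBS and 1495945 to 1591522 in water-Dex. Most of this sum was *Alb*, at 961037 to 1137563 in water-PBS and 1250953 to 1349826 in water-Dex. In water-Dex against water-PBS 4 of 5 markers rose, where 11.8% of all genes tested did. In zinc-Dex against zinc-PBS 3 of 5 rose, where 11.1% of all genes tested did. The sum, again mostly *Alb*, went from 1198981 to 1343392 up to 1531153 to 1631996. In that comparison 2 of 3 red blood cell markers (*Hbb-bs*, *Hba-a1*, *Alas2*) also rose, from a sum of 621.9 to 773.6 to one of 1077 to 1224. No Kupffer cell marker (4 genes) or sinusoidal endothelium marker (3 genes) passed either Dex comparison. Of 4 stellate cell markers, *Lrat* fell in water-Dex against water-PBS (log2 -0.72, DESeq2 adjusted p 0.00111), and *Dcn* rose in zinc-Dex against zinc-PBS (log2 0.34, DESeq2 adjusted p 0.00179). The stellate sum was 3358 to 3533 normalized counts in water-PBS and 3580 to 3638 in water-Dex. It went from 3195 to 3247 in zinc-PBS up to 3510 to 4219 in zinc-Dex. The part of these cells in the *Cyp27a1* result was not tested.

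The promoter of *Cyp27a1* is printed because the gene rose 2 h after a glucocorticoid receptor agonist. Those of *Cyp8b1*, whose water-Dex and zinc-Dex mice did not overlap, and of *Abcb11*, which stayed level, are given for comparison. RefSeq (GRCm38.p6) windows were found for 6 of the 10 genes, and the 250 bases before the annotated start are shown 5′ to 3′ on the gene's strand. They lie at chr1:74713285-74713534 (plus strand) for *Cyp27a1*, chr9:121916306-121916555 (minus strand) for *Cyp8b1* and chr2:69342617-69342866 (minus strand) for *Abcb11*. Capitals mark matches to AGAACA, the half-site of the glucocorticoid receptor palindrome, or to AGGTCA, the half-site shared by many nuclear receptors, on either strand (TGTTCT and TGACCT on the other).
Cyp27a1: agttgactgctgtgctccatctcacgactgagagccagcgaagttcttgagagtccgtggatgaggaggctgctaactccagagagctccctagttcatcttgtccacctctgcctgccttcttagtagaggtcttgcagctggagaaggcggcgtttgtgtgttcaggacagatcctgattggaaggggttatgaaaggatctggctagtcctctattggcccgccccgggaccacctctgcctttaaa
Cyp8b1: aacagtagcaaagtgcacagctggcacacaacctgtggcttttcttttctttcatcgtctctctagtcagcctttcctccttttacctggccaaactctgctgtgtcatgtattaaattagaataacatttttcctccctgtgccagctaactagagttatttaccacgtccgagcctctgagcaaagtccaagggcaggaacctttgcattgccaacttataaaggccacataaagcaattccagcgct
Abcb11: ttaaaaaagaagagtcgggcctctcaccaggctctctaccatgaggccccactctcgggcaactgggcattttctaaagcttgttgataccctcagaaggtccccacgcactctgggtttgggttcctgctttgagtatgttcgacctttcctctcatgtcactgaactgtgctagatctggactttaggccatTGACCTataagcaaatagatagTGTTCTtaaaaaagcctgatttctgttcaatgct

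Neither half-site was found in the *Cyp27a1* or the *Cyp8b1* window. The *Abcb11* window held TGACCT 56 bases and TGTTCT 34 bases before the start. Of the other windows, *Abcb4* held TGTTCT at 183 bases, *Slco1b2* held TGACCT at 81 bases, and 1 of 2 *Slc10a1* windows held AGGTCA at 87 bases before the start. Of 32851 promoter windows of the same length, 16.1% held AGAACA and 14.0% held AGGTCA on either strand. The full palindrome, AGAACA and its inverted copy 3 bases apart, was in 3 of them and in no window of these genes. A match is a description of letters and not a bound site.

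Across the 10 genes, *Cyp27a1* was the 1 that passed in water-Dex against water-PBS, where 22.0% of all genes tested passed (11.8% higher). The median log2 difference of the 10 was -0.006, against -0.01 over all genes. In zinc-Dex against water-PBS it was again the 1 that passed, where 23.8% of all genes did (12.9% higher). In zinc-Dex against zinc-PBS *Cyp27a1* rose and *Cyp7b1* fell, where 20.3% of all genes passed (11.1% higher and 9.16% lower). None passed with zinc alone by DESeq2, where 0.351% of all genes passed, and 1 of the 10 had an unadjusted p under 0.05, against 5.85% of all genes tested. None passed in zinc-Dex against water-Dex, where 1.39% of all genes did, and 5 of the 10 had an unadjusted p under 0.05, against 10.3% of all genes tested. edgeR also passed none of the 10 in either zinc comparison, and 0.0835% and 0.357% of all genes in them. In the 3 comparisons of Dex-injected with PBS-injected mice, 2 of the 10 had non-overlapping groups each time, against 43.8%, 43.7% and 44.5% of all genes averaging 100 or more normalized counts. In the zinc comparisons 1 of the 10 was so placed without Dex and 4 with it, against 12.0% and 22.2% of those genes.

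**Figure D2:**
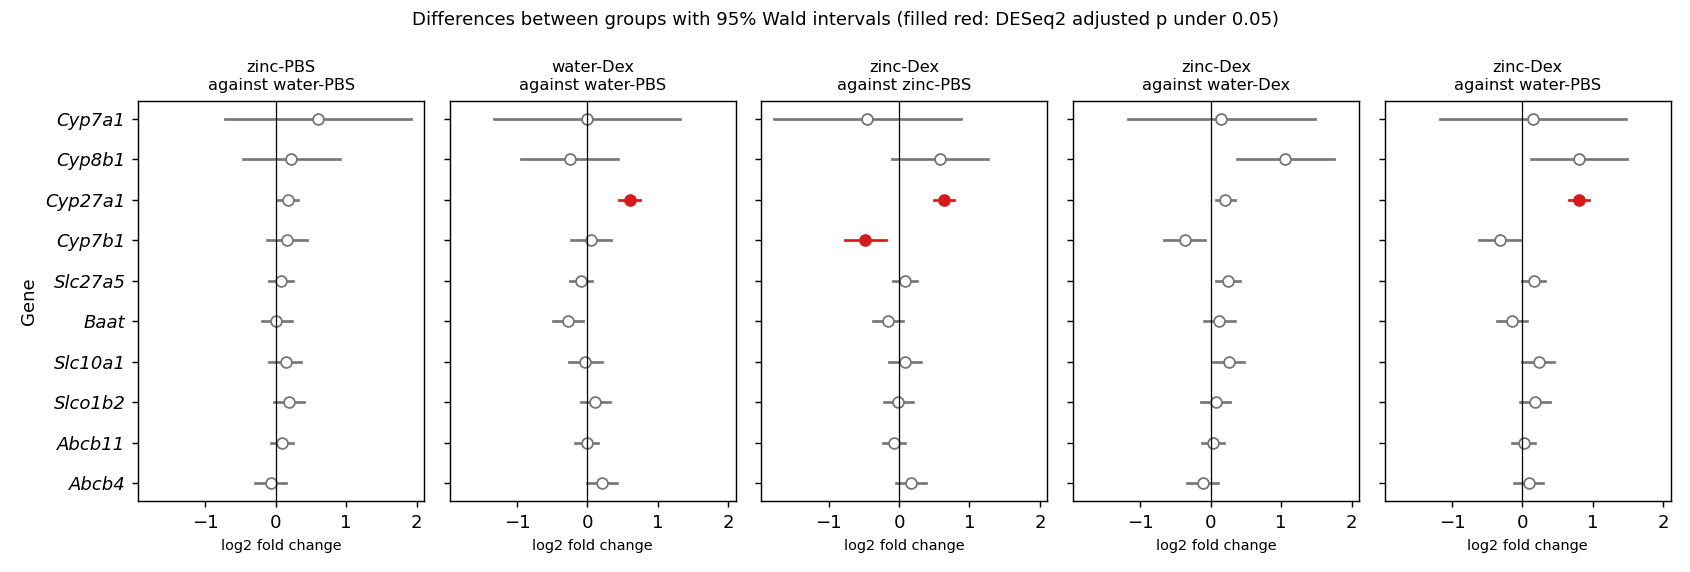
Log2 fold changes of the 10 genes (points) with 95% Wald intervals (lines) in 5 comparisons; filled red points passed at a DESeq2 adjusted p under 0.05. *Cyp27a1* passed in the 3 comparisons of Dex-injected with PBS-injected mice at log2 0.60, 0.64 and 0.80, *Cyp7b1* passed in 1 at -0.48, and the widest intervals are those of *Cyp7a1*.

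*Cyp7b1* (ENSMUSG00000039519, chromosome 3, 18071950 to 18243338, minus strand), the hydroxylase that acts after CYP27A1, was lowest in zinc-Dex. Its normalized counts were 266.7, 243.0 and 255.9 in water-PBS, 313.2, 264.9 and 275.2 in zinc-PBS, 251.8, 319.1 and 220.6 in water-Dex, against 189.0, 222.2 and 200.9 in zinc-Dex. All zinc-Dex mice lay below all zinc-PBS mice, whereas water-Dex spanned water-PBS. The fall against zinc-PBS was -0.48 on the log2 scale (SE 0.147, DESeq2 adjusted p 0.00792). It no longer passed without zinc-PBS replicate 1 (adjusted p 0.0696) or without zinc-Dex replicate 1 (adjusted p 0.0582), or with an absolute log2 fold change over 0.8 also required. Water-Dex against water-PBS was 0.05 (95% interval -0.24 to 0.33, DESeq2 adjusted p 0.873). The difference between the Dex effects with and without zinc was -0.53 (95% interval -0.93 to -0.12, unadjusted DESeq2 p 0.0108), which did not pass over all genes (DESeq2 adjusted p 0.999).

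*Cyp7a1* (ENSMUSG00000028240, chromosome 4, 6265612 to 6275633, minus strand) varied more between mice of a group than between groups. Its normalized counts were 1071, 1878 and 3548 in water-PBS and 1652, 3754 and 4429 in zinc-PBS. They were 3246, 823.2 and 2423 in water-Dex, with 3758, 1080 and 2385 in zinc-Dex. Each group held a mouse at or below 1652 and one at or above 3246, a 5.38-fold span over the 12 mice. Water-Dex against water-PBS was 0.00 on the log2 scale (DESeq2 adjusted p 0.999), with a fold interval of 0.400 to 2.50. Zinc-PBS against water-PBS was 0.60 (SE 0.674, DESeq2 adjusted p 1.0), with a fold interval of 0.606 to 3.78. With 3 mice per group, changes of any size within these intervals remain compatible with the data.

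The within-group SD of log2 *Cyp7a1* was 0.9, larger than that of 99.8% of the 7880 genes averaging 100 or more normalized counts. *Cyp8b1* followed at 0.431 (98.3%). The other 8 genes lay between 0.0696 for *Cyp27a1* (8.67%) and 0.163 for *Cyp7b1* (71.0%), and the median over all these genes was 0.128. The classical route enzymes were thus the most variable of the 10, and the first enzyme of the alternative route the least.

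**Figure D3:**
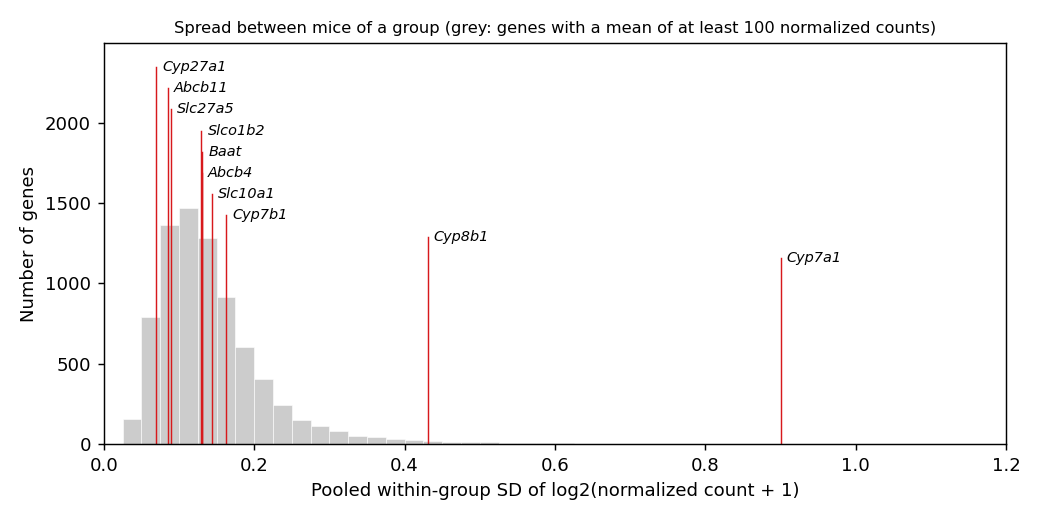
Pooled within-group SD of log2(normalized count + 1) over the 4 groups; the grey histogram counts the 7880 genes averaging 100 or more normalized counts, and red lines mark the 10 bile acid genes. *Cyp7a1* at 0.9 and *Cyp8b1* at 0.431 stand far to the right of the other 8, which lie between 0.0696 and 0.163.

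*Cyp8b1* (ENSMUSG00000050445, chromosome 9, 121914356 to 121916305, minus strand) was highest in zinc-Dex, by differences that did not pass. Its normalized counts were 1734, 2150 and 3302 in water-PBS and 3639, 1973 and 2782 in zinc-PBS. They were 2206, 1959 and 1864 in water-Dex, with 5837, 4050 and 2701 in zinc-Dex. All zinc-Dex mice lay above all water-Dex mice, while zinc-Dex overlapped both PBS groups. Zinc-Dex against water-Dex was 2.09-fold (95% interval 1.30 to 3.35, log2 1.06, unadjusted DESeq2 p 0.00235), with a DESeq2 adjusted p of 0.112. It passed without zinc-Dex replicate 3 (adjusted p 0.0261). Zinc-Dex against water-PBS was 1.75-fold (log2 0.81, DESeq2 adjusted p 0.0761). The latter passed in edgeR's quasi-likelihood test (adjusted p 0.0412), without water-PBS replicate 3 (0.0102) and without zinc-Dex replicate 3 (0.0172). The differences of zinc-PBS and of water-Dex from water-PBS were 0.22 and -0.25 on the log2 scale.

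The conjugation genes stayed close to their control level. *Slc27a5* (ENSMUSG00000030382, chromosome 7, 12988346 to 12998192, minus strand), a bile acid CoA ligase, had 9353, 10342 and 11121 normalized counts in water-PBS and 10069, 9534 and 9384 in water-Dex. It had 11164, 11021 and 10216 in zinc-PBS and 12313, 10926 and 11151 in zinc-Dex, where all mice lay above those of water-Dex. Zinc-Dex against water-Dex was 0.25 on the log2 scale (95% interval 0.08 to 0.41), a DESeq2 adjusted p of 0.129. *Baat* (ENSMUSG00000039653, chromosome 4, 49489422 to 49506557, minus strand) encodes the amino acid N-acyltransferase that adds taurine. It had 3369, 3243 and 3842 normalized counts in water-PBS and 3119, 2589 and 2940 in water-Dex, all below the controls. The difference was -0.27 on the log2 scale (95% interval -0.49 to -0.06) and missed the threshold at a DESeq2 adjusted p of 0.0529. It passed with only genes of at least 10 counts in at least 3 libraries tested (adjusted p 0.0489) and without water-Dex replicate 1 (0.0382). *Baat* in zinc-PBS, at 3513, 3741 and 3291, and in zinc-Dex, at 3547, 2918 and 2960, overlapped the controls.

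Neither uptake carrier passed any comparison. *Slc10a1* (ENSMUSG00000021135, chromosome 12, 80953183 to 80968705, minus strand), the sodium-dependent carrier, had 6310, 7114 and 8113 normalized counts in water-PBS and 8218, 7683 and 7806 in zinc-PBS. It had 7142, 6745 and 7215 in water-Dex, with 9878, 7717 and 7627 in zinc-Dex, all of the latter above water-Dex. That difference was 0.26 on the log2 scale (95% interval 0.03 to 0.48, DESeq2 adjusted p 0.375). Zinc-Dex against water-PBS was 0.23 (DESeq2 adjusted p 0.145) and passed without water-PBS replicate 3 (adjusted p 0.0312). *Slco1b2* (ENSMUSG00000030236, chromosome 6, 141629518 to 141686646, plus strand), a sodium-independent carrier, ranged from 14659 to 19855 normalized counts over the 12 mice, and its groups overlapped in all 5 comparisons.

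The canalicular exporters did not pass either. *Abcb11* (ENSMUSG00000027048, chromosome 2, 69238282 to 69342616, minus strand), the bile salt export pump, had 12201, 10598 and 11863 normalized counts in water-PBS and 12132, 11231 and 11047 in water-Dex. It had 13293, 11891 and 11659 in zinc-PBS and 11972, 11839 and 11274 in zinc-Dex, so that all groups overlapped and the 12 mice spanned 1.25-fold. Water-Dex against water-PBS was -0.01 on the log2 scale, with a fold interval of 0.889 to 1.11. Its exons overlap the opposite-strand genes *Gm13613* and *Gm13614* and the strand setting of the counting was not stated, so its level is uncertain to that extent. *Abcb4* (ENSMUSG00000042476, chromosome 5, 8893717 to 8959231, plus strand), the phospholipid exporter, had 3714, 3512 and 3520 in water-PBS and 3629, 4693 and 4066 in water-Dex. The difference was 0.21 (95% interval -0.01 to 0.42, DESeq2 adjusted p 0.177) and passed only without water-Dex replicate 1 (adjusted p 0.0495). Zinc-PBS, at 3592, 3198 and 3412, and zinc-Dex, at 3388, 4200 and 3856, overlapped the controls.

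Zinc without Dex gave positive values for 9 of the 10 genes, with a median of 0.148 on the log2 scale against -0.001 over all genes tested. The same 3 control mice enter each of these values, and none of the 10 passed. The 95% intervals, not adjusted for the number of genes, give the zinc effects compatible with the data. For *Slc27a5*, *Baat*, *Slc10a1*, *Abcb11* and *Abcb4* they lay within 0.820 and 1.29-fold, and for *Slco1b2* within 0.988 and 1.32-fold. They were widest for the classical hydroxylases, at 0.606 to 3.78-fold for *Cyp7a1* and 0.727 to 1.88-fold for *Cyp8b1*. *Cyp7b1* had 0.917 to 1.36-fold and *Cyp27a1* 1.02 to 1.24-fold. In zinc-Dex against water-Dex 8 of the 10 values were positive, with a median of 0.139 against 0.002, and 4 of the 10 had all zinc-Dex mice higher, where 22.2% of all genes averaging 100 or more normalized counts had non-overlapping groups in either direction. The difference between the Dex effects with and without zinc passed for none of the 10 by DESeq2, where 0.0229% of all genes passed, and 1 of them, *Cyp7b1*, had an unadjusted p under 0.05, against 1.99% of all genes tested. edgeR passed none of the 10 either, and 0.0228% of all genes. For a single gene, an exact permutation test of 3 mice against 3 cannot go below 0.10, so these calls rest on the spread that the models share across genes.

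The other enzymes of the pathway were taken from a list of 12 genes, of which 9 to 11 had enough reads for an adjusted p, by comparison. In water-Dex against water-PBS 3 rose and none fell, in zinc-Dex against zinc-PBS 4 rose and none fell, and with zinc alone none of the 12 passed or had an unadjusted p under 0.05. Over all genes tested, 22.0% passed in the first of these comparisons (11.8% higher), 20.3% in the next (11.1% higher and 9.16% lower) and 0.351% with zinc alone. *Amacr* encodes the racemase that turns the side chain of the bile acid precursors for shortening in peroxisomes, after the step made by CYP27A1. It had 1478, 1493 and 1384 normalized counts in water-PBS, 1445, 1295 and 1484 in zinc-PBS, 2662, 2475 and 2693 in water-Dex, against 3729, 3449 and 3632 in zinc-Dex. The 2 PBS groups overlapped, water-Dex stood above them and zinc-Dex above water-Dex. The Dex effect on *Amacr* was 0.85 on the log2 scale without zinc (SE 0.0778, DESeq2 adjusted p 1.3e-25) and 1.36 with it (SE 0.077, DESeq2 adjusted p 1.1e-66). *Amacr* was also the 1 enzyme that passed in zinc-Dex against water-Dex (log2 0.47, DESeq2 adjusted p 1.4e-06), a result chosen after its values were seen.

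*Cyp39a1*, an oxysterol hydroxylase, had 787.6, 719.9 and 743.5 normalized counts in water-PBS, 981.2, 792.9 and 908.9 in zinc-PBS, 1656, 1608 and 1806 in water-Dex, against 2087, 1446 and 1733 in zinc-Dex. The Dex-injected mice all stood above the PBS-injected mice. The Dex effect on *Cyp39a1* was 1.17 without zinc (DESeq2 adjusted p 1.0e-17) and 0.97 with it (1.6e-12). *Acox2*, the peroxisomal oxidase that acts after AMACR, was named after its values were seen. It rose by less, 0.29 without zinc (DESeq2 adjusted p 0.000827) and 0.41 with it (4.3e-07), from 1865, 2086 and 1995 in water-PBS to 2368, 2561 and 2332 in water-Dex. *Hsd17b4*, the enzyme after ACOX2 and also named after its values were seen, passed with zinc (log2 0.21, DESeq2 adjusted p 0.0144) and not without (0.15, 0.121). The *Hsd17b4* call was lost without zinc-PBS replicate 2 (adjusted p 0.127), without zinc-Dex replicate 2 (0.1), with only the 6 libraries compared (0.0984) and with the replicate number as a block (0.0887). *Hsd3b7*, an enzyme of both routes, had 0 counts in all 12 libraries. Its exons overlap those of *Gm49388* on the same strand and of *9430064I24Rik* on the other, so the 0 cannot be read as an absent transcript.

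**Figure D4:**
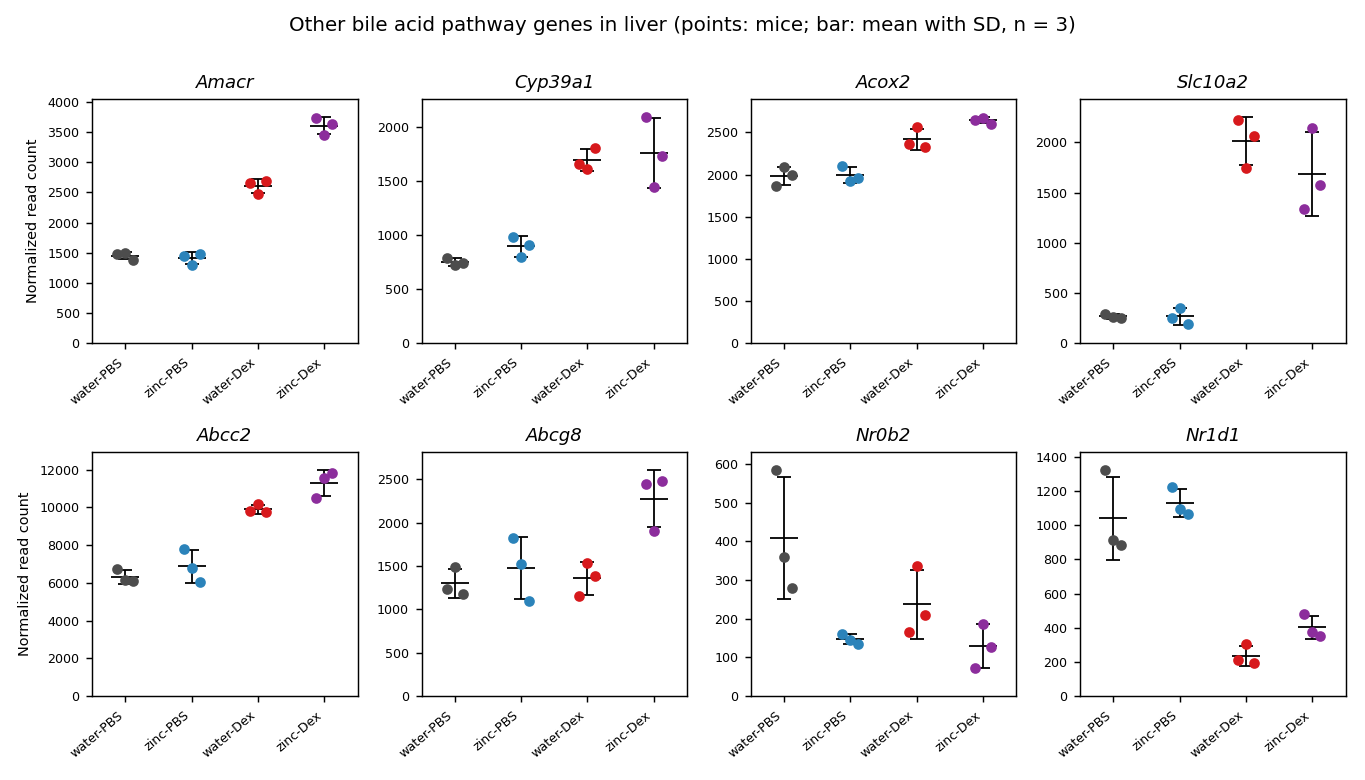
Normalized read counts (linear axes from 0) of 8 other bile acid pathway genes in the 4 groups; each point is 1 mouse and the bar is the mean with its SD (n = 3). *Amacr* steps from 1295 to 1493 in PBS-injected mice to 2475 to 2693 in water-Dex and 3449 to 3729 in zinc-Dex, and *Slc10a2* lies at 192.8 to 353.2 without Dex and at 1334 to 2222 with it.

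Of 13 other bile acid and sterol transporters, of which 11 to 13 were tested, 1 rose and 1 fell in water-Dex against water-PBS, and 6 rose and none fell in zinc-Dex against zinc-PBS, where 22.0% and 20.3% of all genes passed. *Abcc2* (MRP2), a canalicular exporter of conjugates, had 6722, 6147 and 6070 normalized counts in water-PBS, 7803, 6778 and 6069 in zinc-PBS, 9787, 10181 and 9735 in water-Dex, against 10479, 11526 and 11793 in zinc-Dex. All Dex-injected mice were above all PBS-injected mice. *Abcc2* rose by 0.65 on the log2 scale without zinc (SE 0.0957, DESeq2 adjusted p 3.3e-10) and by 0.71 with it (SE 0.0956, DESeq2 adjusted p 3.6e-12). The gene that fell was *Slco2b1*, an organic anion carrier named after its values were seen (-0.45, DESeq2 adjusted p 0.00514), and it no longer passed without water-PBS replicate 3 (0.0772). Its exons overlap *Gm15635* and *Gm34280* on the opposite strand. *Abcc4* (MRP4), a basolateral exporter, was at 76.66, 76.44 and 66.99 in water-PBS and at 66.79, 76.05 and 69.71 in zinc-PBS. It was at 95.44, 92.53 and 94.0 in water-Dex, and at 142.3, 122.2 and 123.0 in zinc-Dex. Its Dex effect passed with zinc (0.86, DESeq2 adjusted p 5.8e-06) and not without (0.35, 0.151). The difference between these 2 effects did not pass (0.51, DESeq2 adjusted p 0.999). *Slco1a1*, an organic anion carrier named after its values were seen, varied widely. It was at 2635, 1385 and 1178 in water-PBS, 1971, 774.5 and 1748 in zinc-PBS, 3111, 2705 and 1519 in water-Dex and 217.2, 1565 and 222.0 for zinc-Dex, and zinc-Dex replicate 2 stood apart from the other 2 of its group. Zinc-Dex against water-Dex was -1.87 on the log2 scale and did not pass (DESeq2 adjusted p 0.3), but passed at -3.48 without that mouse (adjusted p 5.79e-09).

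*Abcg5* and *Abcg8* encode the partners of the canalicular sterol exporter, and were the 2 transporters that passed in zinc-Dex against water-Dex, a result chosen after their values were seen. *Abcg8* had 1153, 1537 and 1388 normalized counts in water-Dex, with 2449, 1902 and 2486 in zinc-Dex (log2 0.75, DESeq2 adjusted p 0.00447). *Abcg5* had 895.5, 1028 and 973.6 in water-Dex, with 1492, 1222 and 1749 in zinc-Dex (log2 0.62, DESeq2 adjusted p 0.0033). Both no longer passed in edgeR (adjusted p 0.0746 for *Abcg8* and 0.061 for *Abcg5*) or without water-Dex replicate 1 (0.0711 and 0.0543). *Abcg8* was also lost without zinc-Dex replicate 1 (0.0533) and *Abcg5* without zinc-Dex replicate 3 (0.0584). The exons of this gene pair overlap on opposite strands.

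*Slc10a2* (ASBT), the sodium-dependent bile acid carrier of ileal enterocytes and bile duct cells, was named after its values were seen. It had 293.0, 261.2 and 249.3 normalized counts in water-PBS, 252.7, 353.2 and 192.8 in zinc-PBS, 2222, 1750 and 2059 in water-Dex, against 1334, 2148 and 1579 in zinc-Dex. The Dex-injected mice were all far above the others. *Slc10a2* rose 7.51-fold in water-Dex against water-PBS (log2 2.91, SE 0.202, DESeq2 adjusted p 9.5e-45) and 6.33-fold in zinc-Dex against zinc-PBS (log2 2.66, SE 0.201, DESeq2 adjusted p 8.4e-38). The ileal gene *Fgf15* had 0 counts in all 12 libraries and *Fabp6* had 0 to 63. Exons of *Fgf15* overlap *Gm26793* and *Gm39119* on the opposite strand, so its 0 cannot be read as an absent transcript. Of 6 bile duct cell markers (*Krt19*, *Krt7*, *Epcam*, *Sox9*, *Spp1*, *Cftr*), none of which was at 0 in any library, none passed in either comparison. Their summed level was 733.0 to 842.3 in water-PBS and 592.4 to 821.2 in water-Dex. It was 660.9 to 1164 in zinc-PBS and 954.2 to 1174 in zinc-Dex, the latter above every mouse on normal water. Most of each sum was *Spp1*, at 639.5 to 727.0 in water-PBS and 526.5 to 724.3 in water-Dex. *Spp1* was at 565.8 to 1025 in zinc-PBS and 864.2 to 1050 in zinc-Dex. *Cftr* was higher in zinc-Dex against water-PBS (log2 2.03, DESeq2 adjusted p 0.048), but it had only 1 to 9 raw reads per library. Its exons overlap *Gm15592* on the opposite strand. The part of bile duct cells in the *Slc10a2* values was not tested.

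Among 16 regulators of the pathway, of which 15 were tested and *Gpbar1* had 0 counts in all 12 libraries, 3 rose and 5 fell in water-Dex against water-PBS, and again 3 rose and 5 fell in zinc-Dex against zinc-PBS. Of all genes tested, 22.0% passed in the former (11.8% higher) and 20.3% in the latter (11.1% higher and 9.16% lower). With zinc alone none of the 15 passed by DESeq2, and 3 had an unadjusted p under 0.05, against 5.85% of all genes tested. In that comparison 3 regulators had all zinc-PBS mice higher and 1 had all lower. Of all genes averaging 100 or more normalized counts, 12.0% had non-overlapping groups there. Neither *Nr1h4* (FXR) nor *Nr5a2* (LRH-1), which drives *Cyp7a1* and *Cyp8b1*, passed any comparison. *Nr1h4* was -0.18 (DESeq2 adjusted p 0.127) and *Nr5a2* -0.07 (0.737) on the log2 scale in water-Dex against water-PBS. *Nr1d1* (REV-ERBα), a clock repressor, fell most surely. It had 1321, 915.5 and 885.2 normalized counts in water-PBS, 1223, 1096 and 1066 in zinc-PBS, 211.2, 302.1 and 192.9 in water-Dex, against 477.9, 376.6 and 352.8 in zinc-Dex. The Dex effect on *Nr1d1* was -2.15 without zinc (DESeq2 adjusted p 4.8e-28) and -1.49 with it (3.3e-14). The difference between the Dex effects with and without zinc passed for none of the 15 regulators tested, *Nr1d1* included. Over all genes 0.0229% passed that test. Of the regulators, 2 had an unadjusted p under 0.05 in it, against 1.99% of all genes tested.

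*Nr1d1* was also the 1 regulator that passed in zinc-Dex against water-Dex (log2 0.77, DESeq2 adjusted p 0.00796), a result chosen after its values were seen. It was lost in edgeR (adjusted p 0.0932) and without water-Dex replicate 1 (0.0875), water-Dex replicate 3 (0.144) or zinc-Dex replicate 1 (0.143). *Dbp*, a clock-controlled activator, had 31.5, 77.35 and 142.8 normalized counts in water-PBS, 260.0, 285.9 and 269.8 in zinc-PBS, 9.137, 10.64 and 0.9894 in water-Dex, against 33.67, 7.776 and 107.7 in zinc-Dex. Its zinc-PBS mice all lay above its water-PBS mice, a difference that did not pass, so the Dex effects start from unlike levels. *Dbp* was lower after Dex, at -3.60 without zinc (DESeq2 adjusted p 0.00164) and -2.45 with it (0.0391), the latter in 7 of 13 alternative analyses. That *Dbp* call was lost without any 1 of the 3 zinc-PBS mice (adjusted p 0.0996, 0.124 and 0.115), without zinc-Dex replicate 1 (0.152) or replicate 2 (0.0808), and without independent filtering (0.0658). *Nr1d1* and *Dbp* overlap exons of *Thra* and *Sphk2* on the opposite strand.

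*Prox1*, a co-repressor of *Cyp7a1*, fell by 0.60 without zinc (DESeq2 adjusted p 0.00426) and by 1.01 with it (1.3e-07), on the log2 scale. Its water-PBS counts were 1522, 1073 and 1589 and its water-Dex counts 829.5, 935.9 and 990.4, with no overlap. Exons of *Prox1* overlap *Prox1os* on the opposite strand. *Ppargc1a*, a coactivator, rose by 0.60 (DESeq2 adjusted p 0.0153) and by 0.84 (0.000182). Its normalized counts were 137.6, 113.8 and 130.7 in water-PBS and 206.1, 180.8 and 191.9 in water-Dex. *Nr1i2* (PXR), a bile acid and drug sensor named after its values were seen, rose by 0.58 (DESeq2 adjusted p 1.0e-06) and by 0.75 (5.5e-11). *Nr1i3*, on the same list and also named after its values were seen, went the other way. It had 391.7, 444.1 and 431.6 normalized counts in water-PBS and 302.6, 303.1 and 291.9 in water-Dex. Exons of *Nr1i3* overlap *Tomm40l* on the opposite strand.

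*Nr0b2* (SHP), the repressor induced by FXR, had 583.9, 360.4 and 280.0 normalized counts in water-PBS, 160.7, 146.0 and 134.9 in zinc-PBS, 165.5, 336.1 and 209.8 in water-Dex, against 73.86, 186.6 and 126.9 in zinc-Dex. It was lower in all zinc-PBS and all zinc-Dex mice than in any water-PBS mouse. Zinc-Dex against water-PBS was -1.66 on the log2 scale (DESeq2 adjusted p 0.000412). Zinc-PBS against water-PBS, named after its values were seen, was -1.47 and did not pass (DESeq2 adjusted p 0.0706). It passed with only those 6 libraries fitted (adjusted p 1.09e-07) and without water-PBS replicate 3 (0.0219), and over 13 alternative analyses the adjusted p went up to 0.349.

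**Figure D5:**
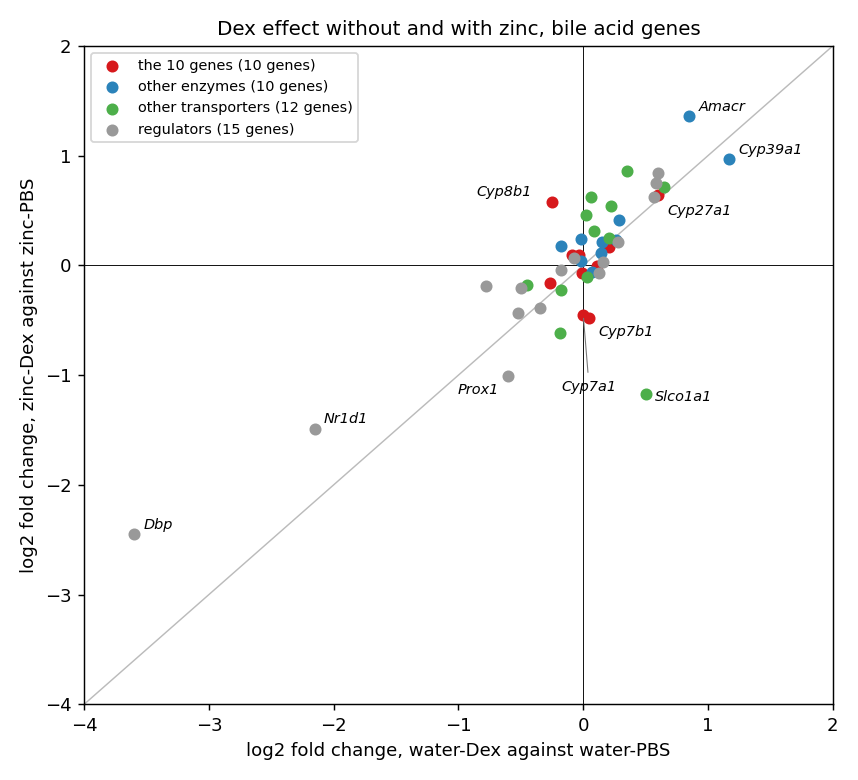
Log2 fold change of Dex against PBS in mice on normal water (x axis) and in mice on zinc (y axis) for the 10 bile acid genes and 37 other pathway genes with an adjusted p in both comparisons; the diagonal marks equal effects, and the comparisons share no library. *Cyp27a1* (0.60 and 0.64) lies near the diagonal, *Amacr* (0.85 and 1.36) above it, and *Nr1d1* (-2.15 and -1.49) at the lower left. The difference between the effects without and with zinc did not pass for *Nr1d1*.

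The genes whose pattern over the 12 libraries was most like that of each of the 10 were found by the root-mean-square (RMS) difference of centred log2(normalized count + 1) among 7880 genes. For *Cyp27a1* it was the mitochondrially encoded *mt-Nd6*, at an RMS difference of 0.0545 where the SD of *Cyp27a1* itself was 0.327. *mt-Nd6* lay at 13935 to 14758 normalized counts in water-PBS, 15261 to 17264 in zinc-PBS, 19555 to 21527 in water-Dex and 21562 to 24611 in zinc-Dex, the order of groups seen for *Cyp27a1*. For *Cyp8b1* it was *Dhcr7*, the last enzyme of cholesterol synthesis, at 0.27 against its own SD of 0.512. *Dhcr7* lay at 1257 to 1563 in water-PBS, 1398 to 1727 in zinc-PBS, 1409 to 1658 in water-Dex and 1901 to 2945 in zinc-Dex.

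*Cyp7a1* had no close match. Its nearest genes were *Mvk*, an early enzyme of cholesterol synthesis, at an RMS difference of 0.574, *Prodh* at 0.577 and *Wipf3* at 0.583, against its own SD of 0.785. *Mvk* lay at 196.4 to 364.6 normalized counts in water-PBS and 203.1 to 327.9 in water-Dex. With a pseudocount of 10 or with TMM factors, *Apol7a* replaced *Wipf3*. For the other genes the nearest were *Ypel5* for *Cyp7b1* (0.125), *Aadac* for *Slc27a5* (0.0369), *Atl3* for *Baat* (0.0612), *Mthfd1* for *Slc10a1* (0.0601), *Clybl* for *Slco1b2* (0.0523), *F13b* for *Abcb11* (0.0462) and *Kmt5b* for *Abcb4* (0.0625).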

How the data were processed

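RNA of 12 livers was sequenced as single-end stranded TruSeq libraries. The authors mapped reads to mm10 with hisat (v2.0.4), assigned them to genes with featureCounts without multimapping reads, and deposited raw counts per Ensembl gene with no normalization. The annotation release and strand setting are not given in the sources used here. Depth is the total count per library, from 9091152 to 12303527, and replicates of a group differed by 6.20 to 20.7 times the chi-square per degree of freedom of counting alone.

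Symbols, exon lengths and coordinates were taken from GENCODE M21 (GRCm38). DESeq2 1.42.0 (R 4.3.3) was fitted to the 12 libraries with 1 coefficient per group, with two-sided Wald tests on unshrunken log2 fold changes, and checked on simulated data. The simulation covered water-Dex against water-PBS with the same spread for all genes. It did not test the interaction or genes as variable as *Cyp7a1* and *Cyp8b1*. The text names the 10 genes, the genes of 3 pathway lists that passed with an absolute log2 fold change over 0.8 (at most 4 per list and comparison), and the nearest genes by pattern (3 for *Cyp7a1* and 1 for each other). Any further gene singled out from a list was chosen with its values in view, and most passages say so. The passages on *Lrat*, *Dcn*, *Cftr*, *Nr1h4*, *Nr5a2*, *Hsd3b7*, *Gpbar1*, *Fgf15* and *Fabp6* do not say it, but it holds for them too. The 10 genes and the lists were chosen with earlier results of these data known. Alternatives were edgeR 4.0.16, TMM factors, a count filter, a replicate block, fits of 6 libraries, no independent filtering, no Cook's filter and leaving out each library.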

Additional observations from a re-analysis of the deposited data

Results flagged for a closer look

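The Dex effect on *Amacr*, the side chain racemase, differed between mice with and without zinc by a test of the difference itself. The interaction of zinc and Dex was 0.51 on the log2 scale (SE 0.109, 95% interval 0.30 to 0.72, DESeq2 adjusted p 0.0167 over all genes). The Dex effect was 0.85 in mice on normal water and 1.36 in mice on zinc, and all 3 zinc-Dex mice lay above all 3 water-Dex mice while the PBS groups overlapped. The value kept its sign in 18 of 18 alternative analyses, at 0.45 to 0.55, and passed in 11 of them. It did not pass in edgeR's quasi-likelihood test (adjusted p 0.488), with the replicate number as a block (0.272), or without water-PBS replicate 2 (0.326), water-Dex replicate 1 (0.17), water-Dex replicate 2 (0.233), zinc-Dex replicate 1 (0.281) or zinc-Dex replicate 3 (0.218). No exon of another annotated gene overlapped those of *Amacr*.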

How the results depend on the processing

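Of 356 recomputed counts of passing genes, 314 stayed within 1.5 times the main count, and no passing value changed sign. The 314 include main counts of 0 that stayed at 0, so they overstate how steady the calls were. With an absolute log2 fold change over 0.8 also required, the 10 genes gave 0 calls in water-Dex against water-PBS and 0 in zinc-Dex against zinc-PBS, since *Cyp27a1* and *Cyp7b1* lay below it. Under it the transporters gave 0 and 3 calls in water-Dex and zinc-Dex against water-PBS, and zinc-Dex gave 0 against water-Dex and 1 against zinc-PBS. The regulators gave 2, 3, 0 and 4 in the same order. The other enzymes then gave 0 in zinc-Dex against water-Dex, 2 in zinc-Dex against zinc-PBS and 0 for the interaction. Over all genes tested this threshold left 1371 of 13998 in water-Dex against water-PBS and 1592 of 14506 in zinc-Dex against water-PBS. It left 59 of 12475 in zinc-Dex against water-Dex, 1513 of 15521 in zinc-Dex against zinc-PBS and 5 of 26185 for the interaction. edgeR gave 2 calls among the 10 genes in zinc-Dex against water-PBS, 0 transporters and 0 regulators in zinc-Dex against water-Dex, and 0 enzymes for the interaction. Over all 13178 genes tested, edgeR passed 3976, 47 and 3 in these comparisons. The count filter gave 2 of the 10 genes in water-Dex against water-PBS, where 3149 of 13250 genes passed. The fit of 6 libraries gave 1 regulator, *Nr0b2*, with zinc alone, where 46 of 10677 genes passed.

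Leaving out 1 library gave 1 to 3 of the 10 genes in water-Dex against water-PBS, 1 to 3 in zinc-Dex against water-PBS, 0 to 2 in zinc-Dex against water-Dex and 1 to 2 in zinc-Dex against zinc-PBS. It gave 1 to 2 transporters in water-Dex against water-PBS, 0 to 4 in zinc-Dex against water-Dex and 0 to 1 for the interaction. It gave 0 to 1 regulators with zinc alone, 0 to 3 in zinc-Dex against water-Dex, and 0 to 1 enzymes for the interaction. Over all genes, the number passing in these fits ran from 2233 of 13863 to 2732 of 13833 in water-Dex against water-PBS. It ran from 2645 of 13854 to 2989 of 13872 in zinc-Dex against water-PBS. In zinc-Dex against water-Dex it was 76 of 10358 to 272 of 11356. In zinc-Dex against zinc-PBS it was 2391 of 14356 to 2660 of 13825. With zinc alone it was 24 of 11319 to 91 of 10841, and for the interaction 4 of 25992 to 31 of 10854. The cause of these moves was not tested.

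Whether equal replicate numbers pair the mice is not known, and correlations over all genes cannot settle it. Deviations of same-numbered mice correlated between -0.226 and 0.235. Between water-Dex and zinc-Dex the correlations were 0.084, 0.235 and 0.067, while every other pair of groups held a negative value. In 3 of 18 pairings across groups a library correlated best with the one of its own number. With the replicate block the interaction call of *Amacr* was lost, leaving 0 enzymes, and so was that of *Hsd17b4* in zinc-Dex against zinc-PBS. No other call named here changed. With 3 mice per group, the wide intervals of *Cyp7a1* and *Cyp8b1* limit what could be detected. Genes whose exons overlap another gene are uncertain, since strand use in counting was not stated.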
